A study of Mus musculus with 6 samples.

Results

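The 10 genes described here make up the core of the MHC class II presentation pathway in mouse liver: the class II chains H2-Aa, H2-Ab1 and H2-Eb1, the invariant chain Cd74, the peptide editor H2-DMa, H2-DMb1 and H2-DMb2, the coactivator Ciita, the protease Ctss and the thiol reductase Ifi30. They were chosen by gene symbol, and all 10 were found once among the 18720 rows of each of the 6 tables. The R159 group was 3 liver samples of male C57BL/6 mice that were on a high-fat diet and received R159, a compound given by code name alone, by intraperitoneal injection. The vehicle group was 3 liver samples of mice of the same strain, sex and diet that received vehicle in the same way. In both groups the mice were 1 year old and were injected 2 times a week for 12 weeks, and no group without the high-fat diet was analysed here. Poly(A) RNA was sequenced as paired reads of 50 bp. No label states that the 3 samples of a group are 3 animals, so the p-values below measure sample-to-sample spread, part of which may be technical. The title of the series concerns gp130, the receptor subunit shared by cytokines of the interleukin-6 family.

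MHC class II molecules are heterodimers of an alpha and a beta chain that show peptides of endocytosed proteins to CD4+ T cells. The invariant chain fills the groove of a new class II dimer and guides it to endosomes, where cathepsin S trims the chain down to a fragment called CLIP, and the H2-DM heterodimer then exchanges CLIP for antigenic peptide. Transcription of the whole set depends on CIITA, a coactivator that does not bind DNA itself but docks on factors seated on the conserved X and Y boxes of class II promoters. In liver the genes are carried mainly by dendritic cells, B cells and macrophages, and in a piece of bulk tissue fewer such cells and less RNA per cell cannot be told apart.

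Promoter windows were available from RefSeq (build GRCm38.p6) for 7 of the 10, in 8 windows of 300 bases; H2-Ab1, Cd74 and Ciita are named only. The stretches below are shown because class II genes share their regulator through X and Y boxes in this region, and because the paralogs H2-DMb1 and H2-DMb2 differ there. The first 4 run from 130 to 21 bases before the annotated start. Matches to the Y box (ATTGG) on the strand shown are in capitals in all 4. Matches to the X box core are in capitals in H2-Eb1 and H2-DMb1, and the core searched had no match in H2-DMb2 or H2-Aa. The core searched reads AGCAACTGATG in H2-Eb1, with the third, the fourth and the seventh letter left free. They are chr17:34305737-34305846 on the plus strand for H2-Eb1, chr17:34153061-34153170 on the plus strand for H2-DMb1, chr17:34145119-34145228 on the plus strand for H2-DMb2 and chr17:34287844-34287953 on the minus strand for H2-Aa.
H2-Eb1: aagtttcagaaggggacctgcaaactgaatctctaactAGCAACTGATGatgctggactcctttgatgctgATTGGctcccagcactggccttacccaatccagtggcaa
H2-DMb1: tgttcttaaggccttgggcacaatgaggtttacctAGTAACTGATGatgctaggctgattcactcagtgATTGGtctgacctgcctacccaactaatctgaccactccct
H2-DMb2: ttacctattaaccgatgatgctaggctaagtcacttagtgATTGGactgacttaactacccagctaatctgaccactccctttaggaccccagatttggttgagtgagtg
H2-Aa: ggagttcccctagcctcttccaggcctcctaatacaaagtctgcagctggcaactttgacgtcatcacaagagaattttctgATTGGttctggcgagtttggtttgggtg

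The X box core, searched on both strands, was in the windows of 2 of the 7 members, H2-Eb1 and H2-DMb1, and in 0.968% of all 32851 windows. The Y box was in the windows of 5 members and in 37.4% of all windows. An X box core with a Y box within 60 bases downstream on the same strand was in 21 of all windows (0.0639%), among them those of H2-Eb1, H2-DMb1 and the related H2-Eb2. In H2-DMb2 the bases aligned with the X box core of H2-DMb1 differ by G2T and T7C, counted from the first base of the core with the H2-DMb1 base first. The aligned bases of these windows were 84.2% identical. The motif matches are a description of letters, and were not tested against any reading of factor binding. The stretch for Ctss, shown because it holds an interferon response element core (in capitals, with the fifth and the sixth letter left free, and found in 3.44% of all windows), covers the 60 bases before the start, chr3:95526726-95526785 on the plus strand.
Ctss: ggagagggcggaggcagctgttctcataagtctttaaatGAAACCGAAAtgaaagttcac

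Estimated depth was 51.3 to 55.7 M reads in R159 libraries and 66.0 to 76.7 M reads in vehicle libraries. Values are the authors' normalised estimated counts, in which 1 read was worth 1.08 to 1.44 in R159 and 0.729 to 0.838 in vehicle, and the lowest value of any member was 43.0, for H2-DMb2. Fold changes are R159 minus vehicle on the log2(value + 1) scale from limma, fitted to the 16594 genes that averaged 10 or more, and a gene was called at a Benjamini-Hochberg adjusted p under 0.05. All 10 members passed the filter. R159 replicate 2 was the library least like vehicle, with Pearson's r over genes of 0.910 to 0.918 where the other R159 libraries had 0.937 to 0.942, and the effect of leaving it out is given with the results below. Mitochondrial transcripts took 8.42% to 13.6% of the values in R159 and 5.01% to 7.43% in vehicle. Over 11042 coding genes with a mean of at least 100, Spearman's rho of log2 fold change with transcript length was -0.497, a correlation over genes, not over replicates, so shorter transcripts tended to be higher in R159.

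Class II transcripts were lower on average in R159 livers, at 0.510 to 0.536 of the vehicle mean for the 3 chains and the invariant chain, but the libraries overlapped and limma called none of the 10 genes. In comparison 27% of all tested genes were called, 14.2% lower and 12.8% higher. The log2 fold change was below 0 for 9 of 10 members and for 50% of all tested genes, and the median over the members was -0.93, against 0.00069 over all tested genes. Without R159 replicate 1 the members' median was -0.57. An unadjusted p under 0.05 was reached by 7 of 10 members and by 41.5% of all tested genes. No member had groups that did not overlap, whereas 46.2% of all tested genes did, 23.6% with R159 lower and 22.5% with R159 higher. In 8 of 10 members exactly 2 of 3 R159 libraries lay below the lowest vehicle library. The share of all tested genes with this arrangement was not computed. Most of the 8 had nearly the same order of libraries, so they are not separate observations.

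H2-Ab1 and H2-Aa encode the beta and alpha chain of I-A, the class II molecule of C57BL/6 mice. H2-Ab1 had 1155, 3008 and 2351 in R159 replicates 1 to 3, against 6153, 3798 and 2746 in vehicle replicates 1 to 3. R159 replicate 1 was the lowest library and vehicle replicate 1 the highest, and R159 replicate 2 lay inside the vehicle range. The mean was 2171 ± 939 in R159 and 4232 ± 1745 in vehicle (SD, n = 3 each), a log2 fold change of -0.99 (SE 0.38, 95% interval -1.84 to -0.14, limma adjusted p = 0.0796). H2-Aa had 1098, 3019 and 2060.2 in R159, against 5441, 3670 and 2422 in vehicle. The order of the libraries was the same as for H2-Ab1, with a log2 fold change of -0.94 (SE 0.38, interval -1.81 to -0.08, limma adjusted p = 0.0958). Without R159 replicate 1, the lowest library, the log2 fold change was -0.59 for H2-Ab1 and -0.55 for H2-Aa.

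H2-Eb1 encodes the beta chain of I-E, whose alpha chain gene is defective in C57BL/6 mice, so that these mice make the H2-Eb1 message but no I-E on the cell surface. H2-Eb1 had 999 (R159 replicate 1), 2568 and 1944 in R159, against 5123, 3212 and 2380.4 in vehicle. The groups overlapped through R159 replicate 2, and the log2 fold change was -0.99 (SE 0.37, limma adjusted p = 0.0733). Without R159 replicate 2 it was called (-1.28, limma adjusted p = 0.0491), and without R159 replicate 1 the value was -0.60 (adjusted p = 0.167). Cd74, the invariant chain and also the surface receptor for the cytokine MIF, had the highest level of the set. Cd74 had 2965, 8234 and 6651 in R159, against 16097, 10802 and 8095 in vehicle. R159 replicate 1 was again lowest and vehicle replicate 1 highest, 5.43-fold apart, and R159 replicate 2 exceeded vehicle replicate 3. Cd74 averaged 5950.1 ± 2704 in R159 and 11665 ± 4070.3 in vehicle (SD, n = 3 each; log2 fold change -1.04, SE 0.38, limma adjusted p = 0.0696), and without R159 replicate 2 it was called (-1.34, adjusted p = 0.0491). Without R159 replicate 1 the value for Cd74 was -0.60 (limma adjusted p = 0.138).

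**Figure D1:**
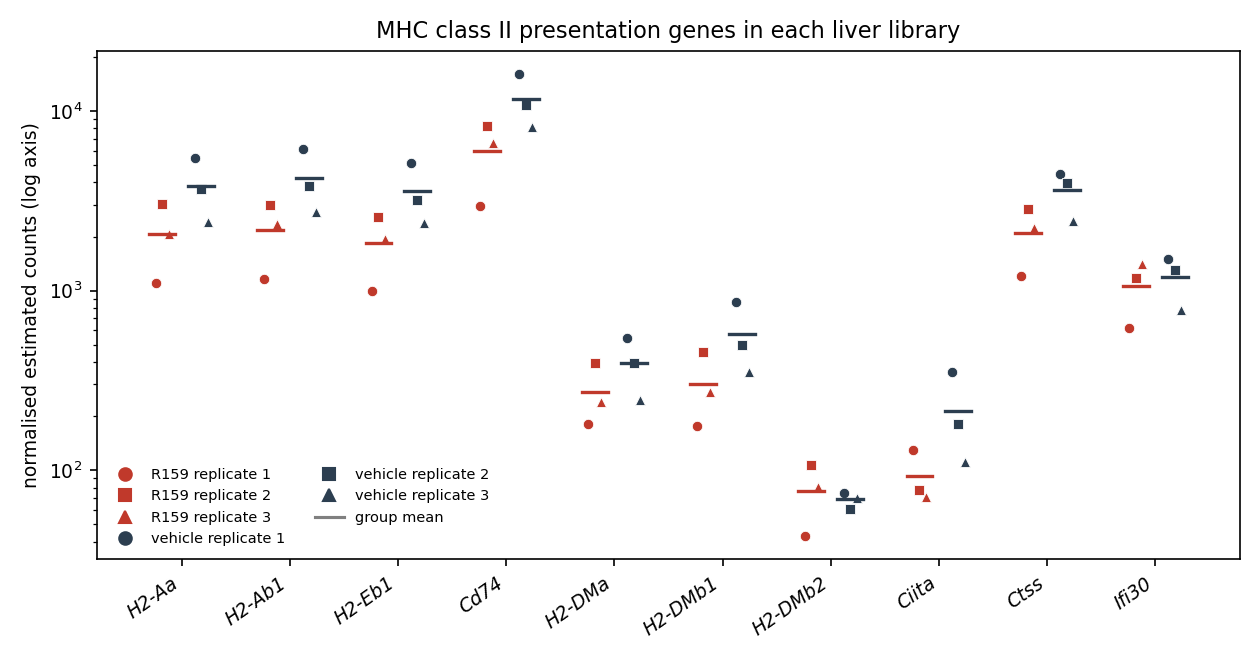
Normalised estimated counts (log axis) of the 10 class II presentation genes, with 1 point per liver library and a bar at the group mean; R159 is left of vehicle for each gene. R159 replicate 1 is the lowest library for 9 of 10 genes and vehicle replicate 1 the highest for 9 of 10, and the groups overlap for every gene.

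Per kilobase of the longest transcript the order of levels in R159 livers was Cd74, H2-Aa, H2-Ab1, Ctss, H2-Eb1, Ifi30, H2-DMb1, H2-DMa, H2-DMb2 and Ciita. Cd74 averaged 4220.0 ± 1917 per kb in R159 and 8273 ± 2887 in vehicle, more than the level of either I-A chain. H2-Aa stood at 1825 ± 852 per kb in R159 and 3408 ± 1345 in vehicle, and H2-Ab1 at 1791 ± 775 in R159 and 3492 ± 1440 in vehicle, so the alpha and beta chain of I-A differed by far less than the spread between libraries. H2-DMb1 stood at 214 ± 101 per kb in R159 and 406 ± 187 in vehicle, and H2-DMa at 136 ± 55.7 in R159 and 197 ± 74.4 in vehicle. Ciita was the lowest, at 15.5 ± 5.38 per kb in R159 and 35.7 ± 20.5 in vehicle, which overlapped the level of H2-DMb2 in vehicle (46.4 ± 4.69) but not in R159 (51.9 ± 21.8).

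The chains stood in nearly the same proportions in every library, although H2-Ab1 itself spread 5.33-fold. H2-Eb1 over H2-Ab1 was 0.865, 0.854 and 0.827 in R159, against 0.833, 0.846 and 0.867 in vehicle, a spread of 1.05-fold over the 6 libraries. H2-Aa over H2-Ab1 was 0.944 ± 0.0640 in R159 and 0.911 ± 0.0479 in vehicle, and Cd74 over H2-Ab1 was 2.71 ± 0.133 in R159 and 2.80 ± 0.170 in vehicle (SD, n = 3 each), with a highest-to-lowest spread of 1.15-fold for each. The groups overlapped in all of these ratios. Ctss over H2-Ab1 spread 1.45-fold, and H2-DMb1 over H2-Ab1 1.31-fold.

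H2-DMa and H2-DMb1 encode the alpha and a beta chain of the H2-DM peptide editor. H2-DMa had 181.75, 397 and 239 in R159, against 546, 394 and 247 in vehicle. R159 replicate 2 exceeded 2 of the vehicle libraries, and the log2 fold change was -0.54 (SE 0.36, 95% interval -1.35 to 0.28, limma adjusted p = 0.29). Leaving out a library moved it to between -0.85 (without R159 replicate 2) and -0.27 (without vehicle replicate 1), with -0.84 without vehicle replicate 3 and -0.29 without R159 replicate 1. H2-DMb1 had 176 in R159 replicate 1, 455 in replicate 2 and 273 in replicate 3, against 862, 497 and 353 in the vehicle libraries. The log2 fold change of H2-DMb1 was -0.93 (SE 0.40, limma adjusted p = 0.113), and it was -0.60 without R159 replicate 1 and -0.58 without vehicle replicate 1. H2-DMa over H2-DMb1 was 1.03, 0.874 and 0.878 in R159, against 0.633, 0.793 and 0.701 in vehicle, so these ratios did not overlap. The ratios between members are descriptions and were not tested.

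H2-DMb2, the second beta chain gene of H2-DM, had another order of libraries than H2-DMb1. It had 43.0, 107 and 80.4 in R159, against 74.8, 61.1 and 70.4 in vehicle. R159 replicate 1 was the lowest library and R159 replicate 2 the highest, with all vehicle libraries between them. The log2 fold change was 0.07 (SE 0.40, interval -0.83 to 0.97, limma adjusted p = 0.912). Its sign turned without R159 replicate 2 (-0.22), without R159 replicate 3 (-0.01), without vehicle replicate 2 (-0.01), after rescaling to the total without the 20 highest genes (-0.040) and with the transcript length trend removed (-0.25). H2-DMb2 over H2-DMb1 was 0.244, 0.236 and 0.295 in R159, against 0.0867, 0.123 and 0.20 in vehicle, and the groups did not overlap. The transcripts of this pair are 94.6% identical over their aligned bases, and 25.2% of all 50-base stretches of H2-DMb2 occur unaltered in H2-DMb1. How the counting divided such reads is not given in the sources used here, so the ratio is uncertain.

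Ciita, the coactivator of the set, had 130.05, 77.6 and 71.1 in R159, against 350.5, 182 and 111 in vehicle. R159 replicate 1 was the highest R159 library for Ciita, while it was the lowest of all 6 for every other member. The log2 fold change was -1.09 (SE 0.44, interval -2.08 to -0.11, limma adjusted p = 0.0899), and -0.66 without vehicle replicate 1. H2-Ab1 over Ciita was 8.88, 38.7 and 33.1 in R159, against 17.6, 20.9 and 24.6 in vehicle. The R159 libraries thus lay on both sides of the vehicle range, and this ratio spread 4.36-fold over the 6 libraries. Ciita overlaps Dexi on the opposite strand in GENCODE M21, and H2-DMa overlaps Brd2 in the same way. Ctss overlaps the pseudogene Hmgb1-ps5 on its own strand, and Ifi30 overlaps 6330537M06Rik on the opposite one. By chromosome the set is spread, with 6 genes in the H2 complex on 17, Cd74 on 18, Ciita on 16, Ctss on 3 and Ifi30 on 8. The library kit keeps strand, but whether the counting used it is not given in the sources used here.

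**Figure D2:**
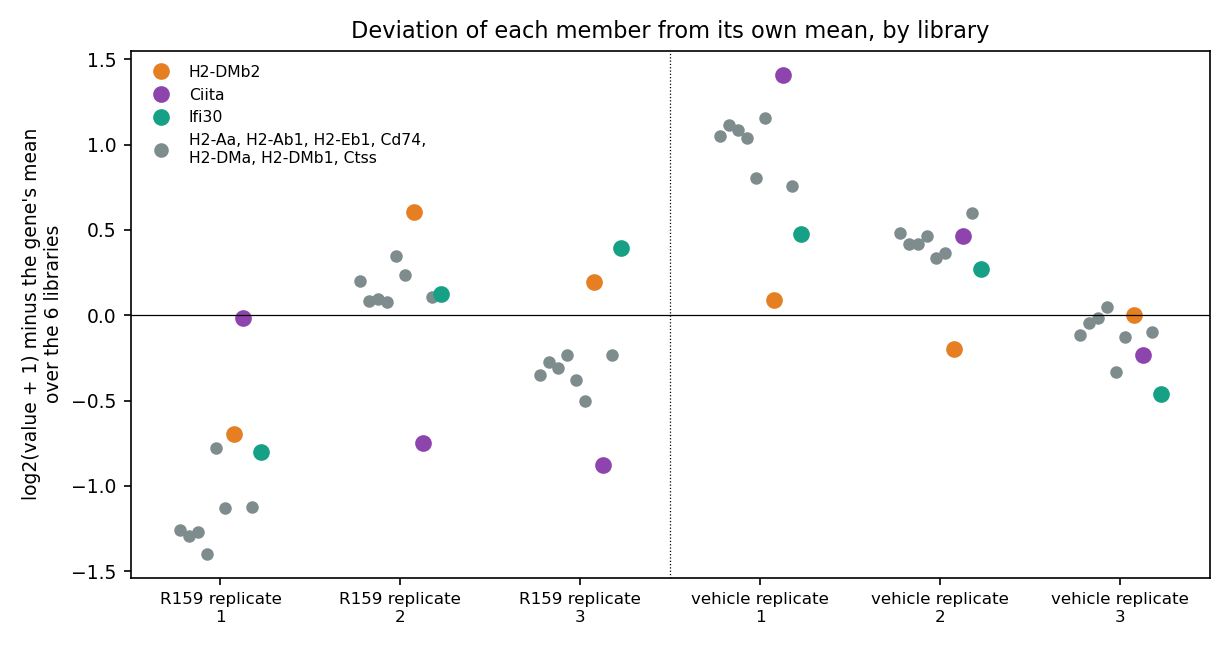
log2(value + 1) of each of the 10 genes minus that gene's mean over the 6 libraries, with 1 point per gene and library, R159 libraries left of vehicle. Ciita (purple) is the highest point in R159 replicate 1 and the lowest in R159 replicates 2 and 3, with the 7 genes of like pattern in grey, and H2-DMb2 (orange) is highest in R159 replicate 2.

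Ctss encodes cathepsin S, the protease that trims the invariant chain in antigen-presenting cells. Ctss had 1206 in R159 replicate 1, 2831 in replicate 2 and 2234 in replicate 3, against 4447, 3978 and 2456 in vehicle. Only R159 replicate 2 lay inside the vehicle range, and the log2 fold change was -0.84 (SE 0.33, interval -1.57 to -0.10, limma adjusted p = 0.0856), or -0.48 without R159 replicate 1. Ifi30 encodes GILT, the reductase that opens disulfide bonds of antigens in endosomes. Ifi30 had 615, 1169 and 1409 in R159, against 1495, 1297 and 781 in vehicle. The groups overlapped broadly, with a log2 fold change of -0.19 (SE 0.34, interval -0.95 to 0.57, limma adjusted p = 0.695), and the sign turned without R159 replicate 1 (0.16). Ifi30 over H2-Ab1 was 0.533, 0.389 and 0.599 in R159, against 0.243, 0.341 and 0.284 in vehicle, and these ratios did not overlap.

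The transcripts of 9 members are short, 981 nt for Ifi30 to 2005 nt for H2-DMa, and that of Ciita is 6007 nt. Other coding transcripts within 10% of the length of H2-Aa (1128 nt) had a median log2 fold change of 0.53 (491 genes), with 1.43% called lower. For transcripts near H2-Ab1 (1212 nt) the median was 0.47 (569 genes), with 0.703% called lower, and for those near Cd74 (1410 nt) it was 0.33 (765 genes), with 2.09% called lower. Around Ciita the median was -0.51 (961 genes), with 33.7% called lower. Each of the 10 members lay below the median of its own length class. With the length trend removed, limma called 6 of 10 members lower, where 9.79% of all genes were called lower. These 6 were H2-Aa (-1.48, SE 0.31, limma adjusted p = 0.0144), H2-Ab1 (-1.47, adjusted p = 0.0148), H2-Eb1 (-1.23, adjusted p = 0.0312), H2-DMb1 (-1.29, adjusted p = 0.0334), Cd74 (-1.40, adjusted p = 0.019) and Ctss (-1.23, adjusted p = 0.0165). Ciita then gave -0.66 (limma adjusted p = 0.312), Ifi30 -0.83 (adjusted p = 0.0705) and H2-DMa -0.67 (adjusted p = 0.188). The correction takes out any change that follows length, and whether the trend is technical was not tested.

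**Figure D3:**
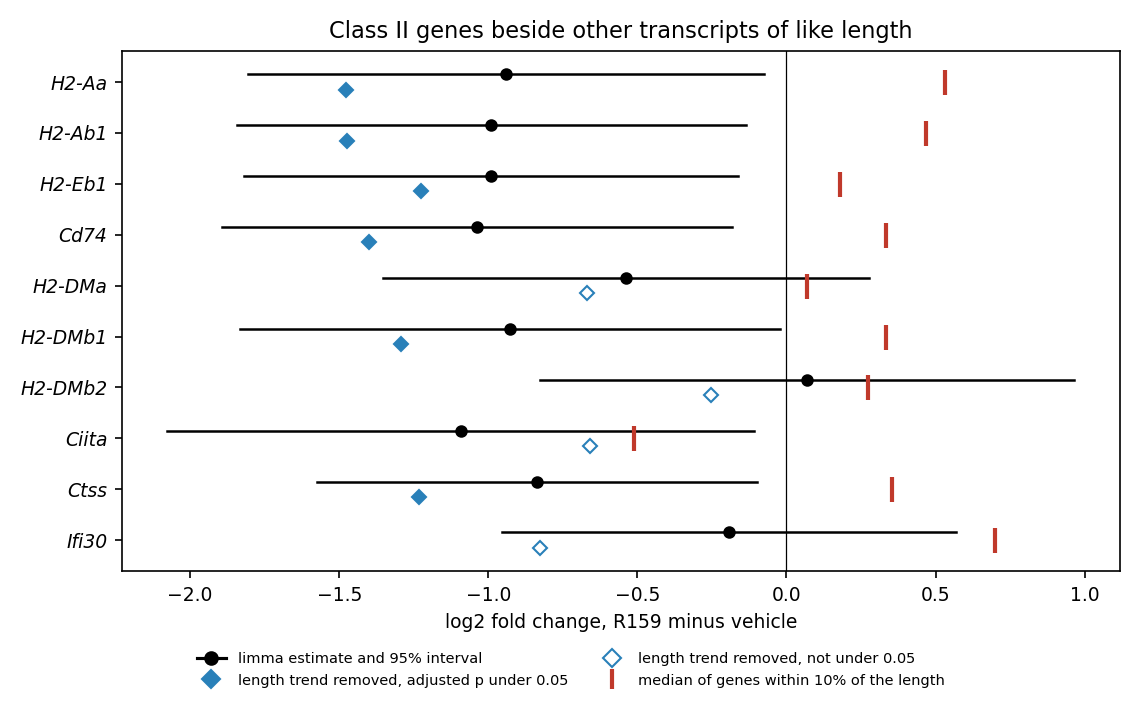
log2 fold change (R159 minus vehicle) of each class II gene with its 95% interval, the value with the transcript length trend removed, and the median of other coding genes within 10% of its length. The estimates for H2-Aa, H2-Ab1, H2-Eb1 and Cd74 lie between -1.04 and -0.94 and their length classes between 0.18 and 0.53.

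The other chains of the family were not called. H2-Ob, the beta chain of H2-DO, an inhibitor of H2-DM found mainly in B cells, had 117, 151 and 65.0 in R159, against 52.3, 53.2 and 57.0 in vehicle. All R159 libraries were above all vehicle libraries, as for 22.5% of all tested genes, but limma did not call H2-Ob (log2 fold change 0.94, adjusted p = 0.0914). Its partner H2-Oa had 8.67, 31.6 and 23.3 in R159, against 24.1, 24.8 and 14.2 in vehicle (limma adjusted p = 0.901). H2-Eb2 was under the filter, at 1.44 to 9.75 in R159 and 7.54 to 12.5 in vehicle, and H2-Ea was not analysed here.

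Of 14 genes for factors that seat CIITA on class II promoters, coactivators and upstream regulators, 1 was called higher and 1 lower. The shares over all tested genes were 12.8% higher and 14.2% lower. Rfxank, a subunit of the RFX complex that binds the X box, had 1567, 1392 and 1301 in R159, against 610, 659 and 852 in vehicle. All R159 libraries were higher, at a limma adjusted p of 0.00641 for a log2 fold change of 1.02 (SE 0.18), and the call held under all 17 other settings. The other RFX subunits gave log2 fold changes of -0.17 for Rfx5 (limma adjusted p = 0.639) and 0.01 for Rfxap (adjusted p = 0.976). Of the 14, 9 had a log2 fold change below 0. Prdm1 had the largest change, -1.89 (limma adjusted p = 0.0502), and was not called. It was low, at 17.3, 7.19 and 4.90 in R159, against 42.4, 37.9 and 26.0 in vehicle, with no overlap. Crebbp (-0.56, limma adjusted p = 0.123) and Ep300 (-0.54, adjusted p = 0.182) were not called either. Kat2b, an acetyltransferase coactivator, fell (-0.92, SE 0.20, limma adjusted p = 0.0129), though the call was lost without vehicle replicate 2 or vehicle replicate 3 (highest adjusted p = 0.0539). Without R159 replicate 1, 4 of the 14 were lower, and lower calls over all 16594 tested genes rose from 2354 to 2904.

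Interferon-gamma is the main inducer of Ciita outside professional antigen-presenting cells. Of 9 measured genes of its receptor pathway, 3 were called lower and none higher. Over all tested genes 14.2% were called lower and 12.8% higher, shares that also stand beside the counts of the lists below. Ifng itself was not among the measured genes. Ifngr2, the signalling chain of the receptor, had 909, 871 and 1114 in R159, against 2314, 2016 and 1699 in vehicle (log2 fold change -1.05, SE 0.18, limma adjusted p = 0.0054). Jak1, a kinase bound to the receptor, fell as well (-0.74, limma adjusted p = 0.00825). The calls of Ifngr2 and Jak1 held under all 17 other settings, and neither gene had overlapping groups. Irf1, a transcription factor that takes part in Ciita induction, had 2043, 2424 and 2134 in R159, against 2029.8, 2332 and 2056 in vehicle (limma adjusted p = 0.864).

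Of 19 measured interferon-gamma targets, 8 were called lower and none higher, with a median log2 fold change of -0.82. The log2 fold change was below 0 for 15 of them. Gbp4 (0.66), Gbp8 (0.43), Nlrc5 (0.37) and Iigp1 (0.13) lay above 0 without being called. Iigp1 was the most abundant target, with means of 19617 in R159 and 17637 in vehicle. Gbp7, a guanylate-binding protein, had 597, 566 and 393 in R159, against 1351, 1291 and 1157 in vehicle (-1.31, SE 0.20, limma adjusted p = 0.00437). Irgm2, an immunity-related GTPase, gave -1.33 (SE 0.22, limma adjusted p = 0.00516). Both calls held under all 17 other settings. Gbp3 (-1.18), Irgm1 (-0.77), Gbp6 (-1.45) and Tgtp1 (-1.93) fell too, all 4 of them GTPases of the interferon response. Their calls were lost without vehicle replicate 1 (adjusted p up to 0.0893 for Gbp6), and those of Irgm1, Gbp6 and Tgtp1 also without vehicle replicate 2. The call of Gbp3 was lost too without vehicle replicate 3, that of Irgm1 without vehicle replicate 3 or R159 replicate 3, and that of Tgtp1 without R159 replicate 1 or R159 replicate 3. Gbp2 and Gbp9 were the remaining called genes. Gbp2 lost its call without R159 replicate 1, R159 replicate 2, vehicle replicate 1 or vehicle replicate 2 (adjusted p up to 0.126). Gbp9, whose groups overlapped, lost its call without R159 replicate 2, R159 replicate 3, vehicle replicate 1 or vehicle replicate 2 (adjusted p up to 0.152). The count of lower targets was 2 without vehicle replicate 1, 3 without vehicle replicate 2, 5 without R159 replicate 3 and 2 with eBayes without trend. Lower calls over all 16594 tested genes fell too, from 2354 in the main fit. They numbered 1251 without vehicle replicate 1, 934 without vehicle replicate 2, 2012 without R159 replicate 3 and 1443 with eBayes without trend.

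Of 18 endolysosomal proteases and related genes, 6 fell and none rose. Ctsd, the aspartic protease cathepsin D, had a log2 fold change of -0.71 at a limma adjusted p of 0.0187. Lgmn, the asparaginyl endopeptidase, had one of -0.87 at a limma adjusted p of 0.0192. Sppl2a, the intramembrane protease that removes the last membrane stub of the invariant chain, gave -0.62 (limma adjusted p = 0.0198; 0.419 with the length trend removed). Ctsf (-0.63) and Lamp1 (-0.58) were called at adjusted p = 0.0373 and 0.0474 by limma. The calls of Ctsd, Sppl2a, Ctsf and Lamp1 were lost whichever vehicle library was left out, with the highest adjusted p, 0.174, for Lamp1. That of Lgmn was lost without vehicle replicate 1 or vehicle replicate 2 (adjusted p up to 0.0834). Sppl2a was lost too without R159 replicate 3, Ctsf without R159 replicate 2 and Lamp1 whichever R159 library was left out. Without vehicle replicate 1 or vehicle replicate 2, 1 of the 18 was lower, without vehicle replicate 3 the count was 2, and without R159 replicate 2 or R159 replicate 3 it was 4. Lower calls over all tested genes, 2354 in the main fit, were 1251, 934 and 1119 without vehicle replicates 1, 2 and 3. They were 1772 without R159 replicate 2 and 2012 without R159 replicate 3. Ctsl, which trims the invariant chain in thymic epithelium, overlapped between the groups (limma adjusted p = 0.954).

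Of 13 genes of class II turnover and trafficking, 5 fell and none rose. Marchf8, a membrane ubiquitin ligase, had 4113, 3753 and 4494 in R159, against 7421, 7220.4 and 8293 in vehicle (-0.89, SE 0.15, limma adjusted p = 0.00508). Marchf1, the related ligase that tags class II in dendritic cells and B cells, had 71.1, 101 and 50.2 in R159, against 125, 154 and 102 in vehicle, with no overlap, and was not called (limma adjusted p = 0.111). Slc15a3, a peptide transporter of endosomes, had a log2 fold change of -1.21 at a limma adjusted p of 0.00758. The call of Slc15a3 held under all 17 other settings, and that of Marchf8 under the 16 that could measure it. Myo1e (-0.64), Ap2a1 (-0.58) and Rab7 (-0.55), which serve membrane traffic, were called at limma adjusted p = 0.0172, 0.0276 and 0.0467. Myo1e lost its call without vehicle replicate 2 or vehicle replicate 3, Ap2a1 whichever library other than R159 replicate 1 was left out, and Rab7 whichever library other than R159 replicate 3 was left out (adjusted p up to 0.137). Of the 13, 2 were lower without vehicle replicate 2 or without vehicle replicate 3, and 3 without vehicle replicate 1 or without R159 replicate 2. The counts over all tested genes without these libraries are those given with the endolysosomal list. With the length trend removed 11 of them could be tested, Marchf8 and Marchf1 having no length. Of these 2 were lower, beside 9.79% of all genes.

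Cd74 also serves as a receptor, and of 6 measured partners in that role 1 rose and 1 fell. Cd44, its signalling partner, had 273, 400 and 384 in R159, against 752, 844 and 525 in vehicle (log2 fold change -1.0, SE 0.24, limma adjusted p = 0.0184). The call was lost without vehicle replicate 1, without vehicle replicate 2 and with the length trend removed (adjusted p up to 0.177). Ddt, a ligand related to MIF, rose (log2 fold change 0.94, limma adjusted p = 0.00763), but gave 0.09 with the length trend removed (adjusted p = 0.78). Without R159 replicate 1, 2 of the 6 were higher, and higher calls over all 16594 tested genes rose from 2125 to 2516. Mif itself had 6239, 13877 and 10832 in R159, against 8885, 8418 and 6416 in vehicle (limma adjusted p = 0.415).

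limma called none of 7 tested genes of costimulation or its inhibition (1 at an unadjusted p under 0.05). It also called none of 13 tested T cell genes, Cd8a among them, which are not limited to T cells that read class II (0 at an unadjusted p under 0.05). Beside these counts, 41.5% of all tested genes had an unadjusted limma p under 0.05. Many of these genes were low: 9 of 14 measured T cell genes and 4 of 9 measured costimulation genes averaged under 50. Cd274, which encodes PD-L1, gave -0.73 (limma adjusted p = 0.0511), and Cd86, a ligand of CD28, gave 0.59 (adjusted p = 0.162). Cd4 had 32.5, 79.1 and 238 in R159, against 59.8, 27.0 and 36.9 in vehicle. R159 replicates 2 and 3 lay above every vehicle library, R159 replicate 3 by the wider margin and R159 replicate 1 inside the vehicle range. limma did not call Cd4 (adjusted p = 0.242). Trbc2 (log2 fold change 1.15) and Lag3, an inhibitory receptor that binds class II (0.78), were the genes of smallest p in the T cell list (limma adjusted p = 0.161 and 0.217).

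**Figure D4:**
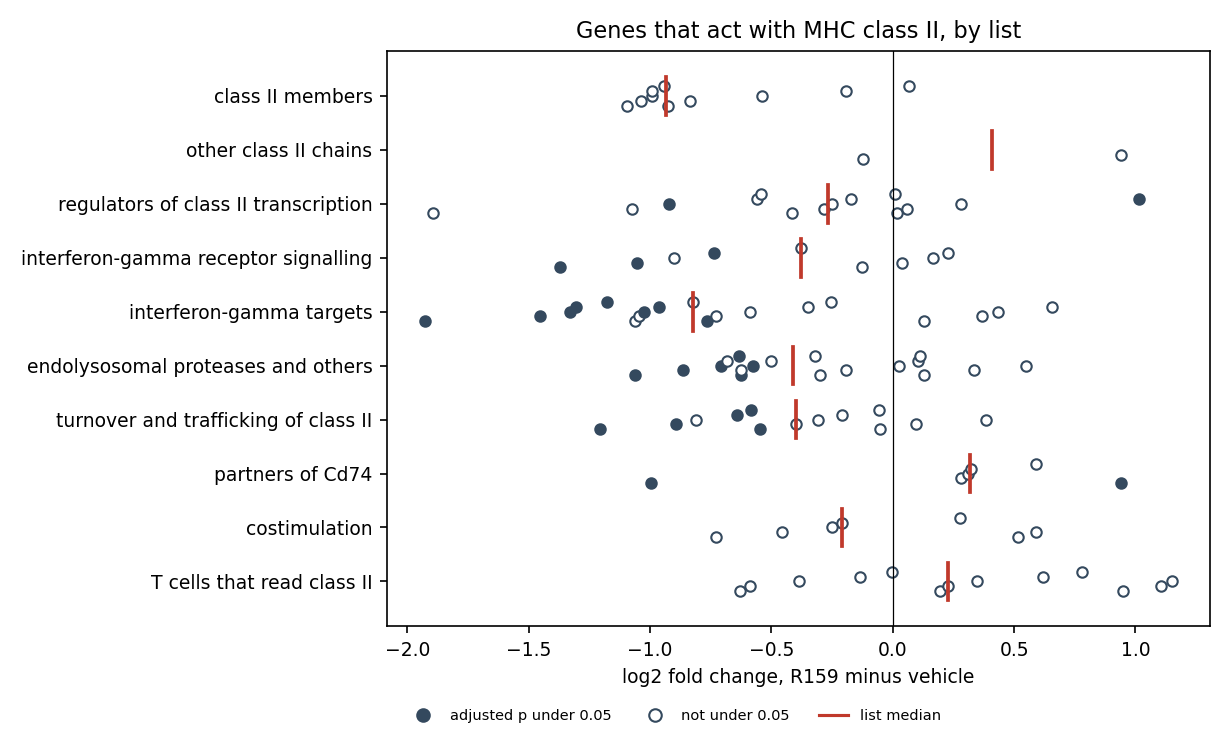
log2 fold change (R159 minus vehicle) of each tested gene of the class II set and of 9 lists of genes that act with it; filled points had a limma adjusted p under 0.05 and red bars mark list medians. The class II set has no filled point at a median of -0.93, and the interferon-gamma targets have 8 filled points at a median of -0.82.

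Markers of cells that carry class II differed between libraries and are given as sums per library. The counts of called markers stand beside 14.2% of all tested genes called lower and 12.8% called higher. Those at an unadjusted limma p under 0.05 stand beside 41.5% of all tested genes. The 10 class II genes summed to 8569.6 to 21867 in R159 and 19661 to 40590.2 in vehicle. The 12 dendritic cell markers summed to 867 to 1037 in R159 and 796 to 1235 in vehicle, and limma called none (2 at an unadjusted p under 0.05). The 11 B cell markers summed to 773 to 1028 in R159 and 591 to 622 in vehicle, with no overlap, while limma called none (2 at an unadjusted p under 0.05). The 12 Kupffer cell markers summed to 17016 to 23674 in R159 and 22393 to 33123 in vehicle, and 3 were lower (Adgre1, Csf1r and Cd5l). The Kupffer cell markers were mixed in direction: 6 of the 12 had a log2 fold change above 0 and the median was -0.03. Marco (3.07, limma adjusted p = 0.0619) and Timd4 (2.09, adjusted p = 0.0872) were higher in every R159 library than in any vehicle library without being called, and Cd163 gave 2.45 (adjusted p = 0.13). The 12 markers of monocytes and their macrophages summed to 9320 to 12779 in R159 and 10276 to 22585 in vehicle, and 3 were lower (Gpnmb, Cx3cr1 and Ccr2). Of these, Cx3cr1 was not called without vehicle replicate 1 (adjusted p = 0.0502), nor Ccr2 whichever library other than R159 replicate 1 was left out (adjusted p up to 0.218). The 12 general leukocyte markers summed to 8794 to 11636 in R159 and 11922 to 17336 in vehicle, with no overlap, and 2 were lower (Laptm5 and Lcp1). These 2 abundant genes carried most of the difference in the sum, Lcp1 with means of 3771 in R159 and 7044 in vehicle and Laptm5 with 916 in R159 and 2574 in vehicle. The median log2 fold change of the list was -0.14, and Tyrobp (0.19), Cd52 (0.13) and Fcer1g (0.09) had values above 0. With the length trend removed, 6 Kupffer cell markers, 5 general leukocyte markers and 4 of monocytes and their macrophages were lower. Under that setting 1554 of all 15871 genes were lower (9.79%) and 1500 higher. No dendritic cell, B cell, sinusoidal endothelial or hepatocyte marker was then lower, and 1 dendritic cell and 1 sinusoidal endothelial marker were higher. No marker was at 0 in any library, but 7 of the 12 dendritic cell markers and 5 of the 11 B cell markers averaged under 50. The part of these cells in the class II values was not tested. The 9 markers of sinusoidal endothelial cells summed to 9574 to 11717 in R159 and 9176 to 12753 in vehicle, and limma called none (2 at an unadjusted p under 0.05). Hepatocyte markers were abundant in every library, at a sum of 4584480 to 7454800 in R159 and 3860480 to 5680900 in vehicle, most of it Alb. Of the 8 markers 2 were lower (Apob and Hnf4a). Neither kept its call without vehicle replicate 2, without vehicle replicate 3 or with the length trend removed. Only 3 of the 8 had a log2 fold change below 0, and the median was 0.32. Ttr (0.78, limma adjusted p = 0.152) was higher in every R159 library than in any vehicle library without being called. Apoa1 gave 1.36 (adjusted p = 0.0811).

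Taken per unit of leukocyte markers, the sum of the 3 chains and Cd74 was 0.707, 1.68 and 1.12 in R159, against 1.91, 1.24 and 1.31 in vehicle, and the groups overlapped. Per unit of monocyte and macrophage markers it was 0.667, 1.32 and 1.09 in R159, against 1.45, 1.34 and 1.52 in vehicle, and the groups did not overlap. The most abundant of these markers were Lyz2 (mean 4175 in R159, 4741 in vehicle), Spp1 (2564 in R159, 6684 in vehicle) and Cd9 (2727 in R159, 2064 in vehicle). Per unit of Kupffer cell markers it was 0.365, 0.742 and 0.549 in R159, against 1.29, 0.649 and 0.699 in vehicle, with overlap. Per unit of dendritic cell markers it was 6.37, 19.4 and 12.5 in R159, against 26.6, 21.3 and 19.6 in vehicle, with no overlap. Per unit of B cell markers it was 8.05, 16.4 and 15.4 in R159, against 55.5, 34.6 and 26.1 in vehicle, with no overlap.

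**Figure D5:**
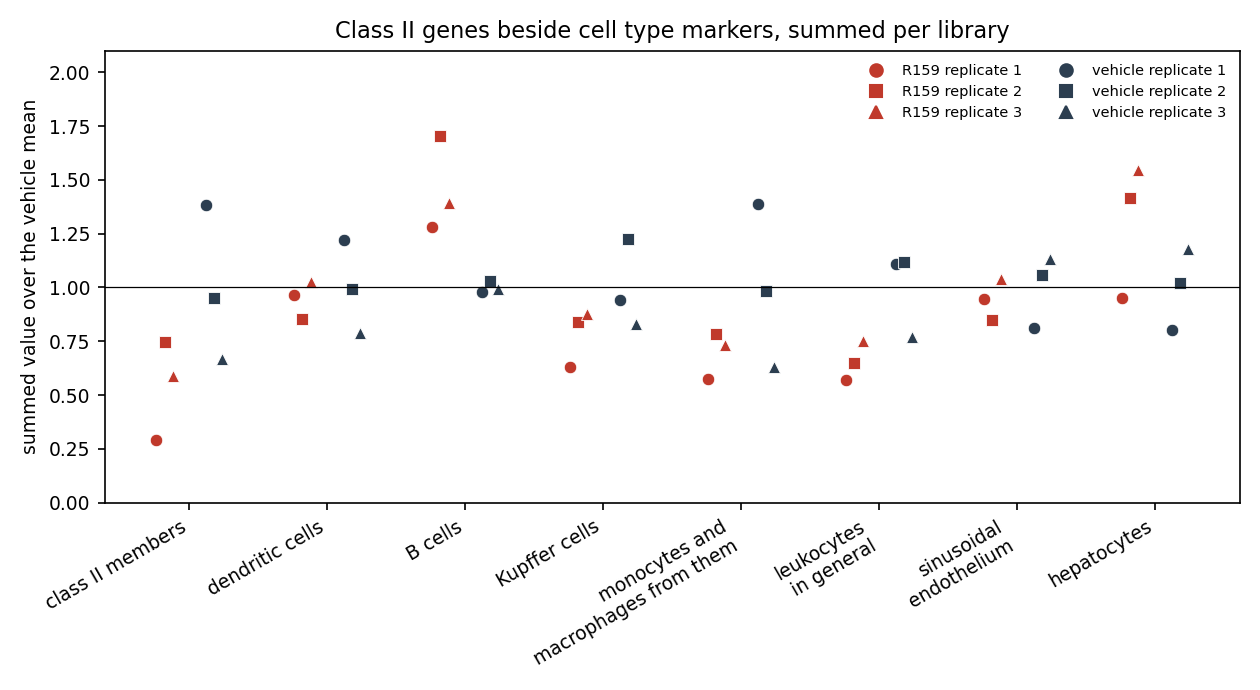
Sum of the 10 class II genes and of each cell type's markers in each library, divided by the mean of the vehicle libraries; R159 is left of vehicle. The class II sum in R159 replicate 1 (8569.6) is the farthest below the vehicle mean, and the B cell sums of R159 lie above all vehicle sums.

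The genes whose pattern over the 6 libraries was most like that of the class II set were ranked by Pearson's r with the mean centred profile of the 10 members, among the 13287 genes that averaged 50 or more. The first 10 were Shkbp1 (r = 0.991), Parvg (0.991), Krt18 (0.986), Ripor2 (0.986), Fkbp1a (0.982), Ggta1 (0.981), Nme7 (0.978), Gyg (0.978), Rras2 (0.977) and Gm30692 (0.976). An r of at least 0.9 was reached by 132 genes. The size of a change does not enter r. Shkbp1 ranked first with a log2 range of only 0.283, from 445 in R159 replicate 1 to 542 in vehicle replicate 1, where H2-Ab1 had 2.41. With 6 points that share library and depth, r is a description only. Parvg, an adaptor of leukocyte adhesion, had 43.4, 114 and 84.6 in R159, against 187, 133 and 98.9 in vehicle. Krt18, a keratin of hepatocytes and bile duct cells, had 9503, 21780 and 17670 in R159, against 33290, 27820 and 18050 in vehicle, so the pattern was not limited to genes of immune cells. Among the members H2-Aa, H2-Ab1, H2-Eb1 and H2-DMb1 had r of 0.990 to 0.998 with the profile they helped to form, and Ifi30, Ciita and H2-DMb2 had 0.793, 0.607 and 0.517.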

How the data were processed

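Poly(A) RNA of 6 liver samples (3 R159, 3 vehicle) was analysed. The deposited values are a signal: to judge from their low values, estimated gene counts divided by 1 factor per sample, in 1 table of 18720 rows per sample. Per the submitters' processing notes, the tools were STAR 2.7.8a, DESeq2 (version listed: 3.5), R 4.2.3, cutadapt and FastQC 0.11.9 on mm39, with the counter and its handling of strand not given in the sources used here. The spacing of low values gave the worth of 1 read in each library, and with it depths of 51.3 to 76.7 M reads. Between 67.5% and 75.6% of the values below 200 reads lay within 0.02 of a whole read, so no count model was used.

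Genes with a mean of at least 10 (16594; 2126 fell below) were analysed as log2(value + 1), which understates changes of low genes, with limma 3.58.1 (R 4.3.3; a group term, moderated by eBayes with trend) and Benjamini-Hochberg adjustment over all of them. The members and gene lists were chosen with earlier results of these data known. All members are described; of each list, called genes up to 6 by smallest p, or otherwise the 2 of smallest p, and further genes named were chosen after their values were seen; some list genes that the rule names are not reported here. Lengths are those of the longest coding transcript in GENCODE M21 (for Ifi30 a transcript without a coding record), found for 95.6% of tested genes; no coordinates were converted between builds. The length trend was removed per library by a lowess curve (span 0.3). Transcripts and promoters were aligned with Biopython 1.88. The scripts were tested on simulated data. Plots used matplotlib 3.10.9 (Python 3.11.15).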

Additional observations from a re-analysis of the deposited data

How the results depend on the processing

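The count of class II members called was 0 under pseudocounts of 0.5 and 8, without a filter or with a mean of at least 50, with TMM scaling and with eBayes without trend. It was 2 after rescaling to the total without the 20 highest genes (H2-Eb1 and Cd74, a scaling that moved the median of all genes to -0.11), 2 with sample weights (Cd74 and Ctss), 6 with the length trend removed and 6 at a threshold of 0.1, all lower, and 0 to 2 when each library was left out. Over the same leave-outs the members' median log2 fold change was -0.57 without R159 replicate 1, -0.66 without vehicle replicate 1 and -0.93 to -1.23 without any other. Signs turned for H2-DMb2 without the 20 highest genes (-0.040), with the length trend removed (-0.25) and without R159 replicate 2 (-0.22), R159 replicate 3 (-0.01) or vehicle replicate 2 (-0.01), and for Ifi30 without R159 replicate 1 (0.16); leaving out libraries gave -0.22 to 0.43 for H2-DMb2 and -0.47 to 0.16 for Ifi30, and the cause was not tested. All tested genes called numbered 4479, and 1854 to 5420 when a library was left out (2498 without vehicle replicate 1, 1854 without vehicle replicate 2, 2185 without vehicle replicate 3); eBayes without trend gave 3085. Of the lists, 26 genes were called, 11 to 29 with a library left out (12 without vehicle replicate 1, 11 without vehicle replicate 2, 16 without vehicle replicate 3) and 15 with eBayes without trend; 9 of the 26 kept their call under every alternative that measured them, and no sign turned among them. The lowest members, H2-DMb2 and Ciita, carry the most counting error.

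Replicate numbers are shared between the groups. Deviations of same-numbered libraries from their group means correlated at -0.0981, 0.0314 and 0.108, so the numbers do not show a pairing. With the replicate block 1 member, Ciita, was called (adjusted p = 0.0362), 3945 of all genes and 23 of the list genes.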
